A study of Mus musculus with 6 samples.

Results

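Genes for the machinery of oxidative phosphorylation were followed across 3 populations sorted from mouse hind limb muscle at both ages. They were chosen by symbol alone: all named probes whose symbol begins with Ndufa, Ndufb, Ndufc, Ndufs, Ndufv, Uqcr or Atp5, is Sdha, Sdhb, Sdhc or Sdhd, or begins with Cox4, Cox5, Cox6, Cox7 or Cox8. This rule took 97 probes of 92 genes, out of 19321 named genes on the array, and the brightest probe stood for each gene. Complex I had 42 of these genes (6 core subunits, 29 accessory subunits and 7 assembly factors named Ndufaf), complex II had 4, complex III 9, complex IV 20 and complex V 17. Ndufa4 and its paralog Ndufa4l2 were counted with complex IV, where Ndufa4 is now placed, and the pseudogene Uqcrh-ps1 was kept with complex III. Of the 92, 91 were above background on at least 2 arrays and were tested, and 90 were above background on all 6. Cox8c, a testis isoform, was above background on no array, and Ndufaf5, an assembly factor, was above it on 4 arrays and on neither PDGFRa array.

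Oxidative phosphorylation passes electrons from NADH (complex I) or succinate (complex II) through complex III to oxygen at complex IV, and the proton gradient this builds drives ATP synthesis by complex V. Most subunits are encoded in the nucleus, and the few made from mitochondrial DNA are not analysed here. In skeletal muscle the fibres are rich in mitochondria and use tissue-specific isoforms of complex IV, whereas resting satellite cells, the stem cells of the fibre, are small cells with few mitochondria.

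All mice were C57BL/6, and cells of repeated sorts were pooled for each array. The groups were aged satellite cells, aged PDGFRa+ mesenchymal progenitors (below, PDGFRa cells) and aged CD31+ or CD45+ cells (below, CD31_CD45 cells, a mixture of endothelial and hematopoietic cells), all from mice of 24 to 28 months, and the same populations from young mice of 8 to 10 weeks. Amplified, Cy5-labelled RNA of each group was hybridised to 1 one-colour array, so there was no replicate within a population and age. Levels are given below as normalised log2 intensity, each gene is compared only with itself, and fewer cells of a type cannot be told apart from less RNA per cell.

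On the 6 arrays, 88.4% to 92.3% of 23473 probes were above background, and in each comparison of populations the aged and the young array of a population served as its 2 samples. The sort labels held: 10 satellite cell markers summed to 20175.9 (aged) and 24237.2 (young) deposited intensity units in satellite cells and to at most 768 elsewhere, 10 mesenchymal markers to 71892.2 (aged) and 93742.6 (young) in PDGFRa cells, and 11 endothelial and 12 hematopoietic markers in CD31_CD45 cells to 39964.5 and 33344.3 (aged) and to 51464.8 and 27651 (young). On the satellite arrays mesenchymal markers summed to 5460.7 (aged) and 1338 (young), and 12 pericyte and smooth muscle markers to 9849.4 (aged) and 5842.7 (young). The pericyte and smooth muscle markers were highest on the CD31_CD45 arrays, at 14557 (aged) and 11828.3 (young). On the PDGFRa arrays they summed to 1223.8 (aged) and 790.1 (young). On the PDGFRa arrays hematopoietic markers summed to 2129.1 (aged) and 333.7 (young). The 6 erythroid genes summed to 44861.1 (aged) and 61908.7 (young) in CD31_CD45 cells. They summed to 8813.2 (aged) and 6688.5 (young) in satellite cells and to 3188.6 (aged) and 7113.4 (young) in PDGFRa cells. The headers record slopes between the scanner gains of each array, and the labels name no batch. The first slope was 0.465 to 0.466 on some arrays and 0.477 to 0.478 on the others. A cut at 0.47, chosen here, gave 2 sets, called scanner sets below. PDGFRa cells of both ages and young satellite cells are in one, and CD31_CD45 cells of both ages and aged satellite cells are in the other, so for PDGFRa against CD31_CD45 cells population and scanner set cannot be told apart.

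Most oxidative phosphorylation genes were higher in satellite than in PDGFRa cells, most of them by small amounts that did not pass the test. Against PDGFRa cells, 18 of the 91 genes rose and 5 fell in satellite cells at an adjusted p under 0.05 (limma). Of the 91, 67 were higher, as were 9832 of all 18372 genes tested. The median log2 difference was 0.18, against 0.01 over all genes. Of all genes tested, 24.5% were called in this comparison, 12.8% higher and 11.7% lower, so the 91 genes were called about as often as genes at large. At 2-fold or more lay 3 of the 23 (Ndufb11, Cox8b and Ndufb2), where 7.28% of all genes were both called and 2-fold. With signals scaled by the median of each array in place of quantile normalisation, 9 rose and 7 fell, and 13 of the 23 calls were among them. Under this scaling 22.4% of all genes tested were called. With each spot's local background in place of the blank spots, limma called none of the 91 in any comparison of populations (9 in each had an unadjusted p under 0.05). Few genes at large were called there either: 0.46% (satellite against PDGFRa), 2.75% (satellite against CD31_CD45) and 2.11% (PDGFRa against CD31_CD45). Of the calls reported here, 12 turned their direction with the local background, among them Atp5a1 and Sdhb for satellite minus CD31_CD45 and Ndufc2 for PDGFRa minus CD31_CD45. With either PDGFRa array left out, limma called 0 of 91, and 0 of all genes, at an adjusted p under 0.05, and 32 (without the young array) or 40 (without the aged array) members had an unadjusted p under 0.05. With scanner set as a block, only satellite cells span both sets, so this comparison rests on the young satellite array alone. The fit then equals the one without the aged satellite array, with a median of 0.21, and is not a separate check of scanner set. Fewer of the 91 genes were called in it. Young satellite and young PDGFRa cells, which share a scanner set, differed by a median of 0.21 over the 91 genes, with 68 higher in satellite cells.

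Against CD31_CD45 cells, 22 genes rose and 11 fell in satellite cells, with a median of 0.10 against 0.02 over all genes. The background was again close, since 34.9% of all genes tested were called (19.3% higher and 15.6% lower), and 33.2% under median scaling. Of the 33 calls, 4 were at least 2-fold (Cox8b, Uqcrh-ps1, Ndufa8 and Ndufa4l2), where 11.7% of all genes were. Under median scaling 18 rose and 4 fell, with 20 of the 33 calls among them, and leaving out 1 array gave between 9 calls (without young CD31_CD45 or without young satellite cells) and 21 (without either PDGFRa array), with 13 without aged CD31_CD45 and 14 without aged satellite cells. With the scanner block this comparison rests on the aged satellite array alone. It then equals the fit without the young satellite array, with a median of 0.09, and fewer genes were called. Aged satellite and aged CD31_CD45 cells, of one scanner set, differed by a median of 0.08, with 52 of 91 genes higher in satellite cells. PDGFRa cells stood below CD31_CD45 cells for more genes than above: 5 rose and 14 fell, with a median of -0.06, against 0.01 over all genes, and 28.7% of all genes tested were called (15.1% higher and 13.6% lower). That direction turned with the scaling, since under median scaling 6 rose, 2 fell and the median was 0.06. Of all genes tested, 27.5% were called under median scaling, with a median of 0.03. Of the 19 calls, Cox5a and Ndufa8 were at least 2-fold, a count of 2 where 10.1% of all genes were. Leaving out 1 array gave between 2 calls (without young CD31_CD45 cells) and 11 (without either satellite array), with 3 without young PDGFRa, 4 without aged PDGFRa and 6 without aged CD31_CD45 cells.

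**Figure D1:**
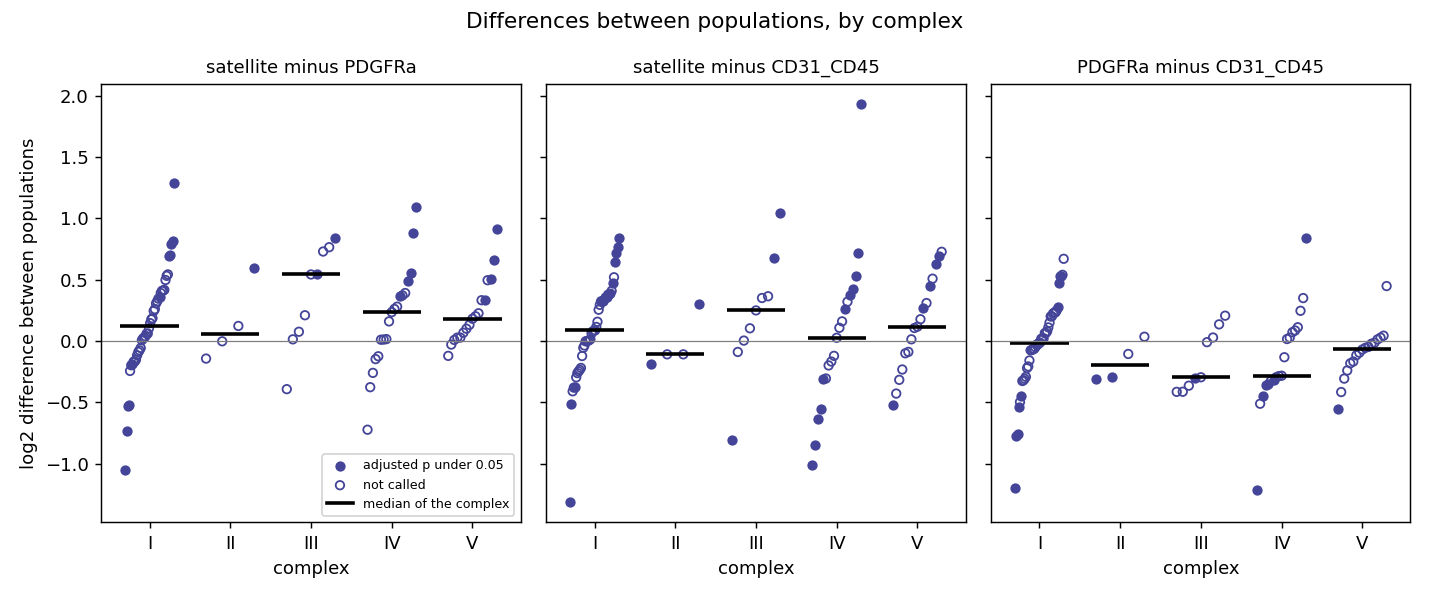
Log2 difference between populations (vertical axis) for each of the 91 tested genes, by complex (horizontal axis), in the 3 comparisons. Filled points have an adjusted p under 0.05, open points do not, and bars are the median of the complex; complex III has the highest median, 0.54, for satellite minus PDGFRa.

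Gene by gene, both satellite arrays lay above both PDGFRa arrays for 45 of the 91 genes, against 33.7% of all genes, and below both for 14, against 28.6%. For satellite against CD31_CD45 cells these counts were 45 above, where all genes gave 41.0%, and 23 below, where all genes gave 28.9%. The population with the highest mean was the satellite population for 49 of the 91 genes, CD31_CD45 cells for 29 and PDGFRa cells for 13. Over all genes tested it was the satellite population for 39.1%, CD31_CD45 cells for 30.6% and PDGFRa cells for 30.3%. In the map of levels by array, a few genes such as Cox8b, Ndufb11, Cox5a and Ndufa8 set a population apart at both ages.

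**Figure D2:**
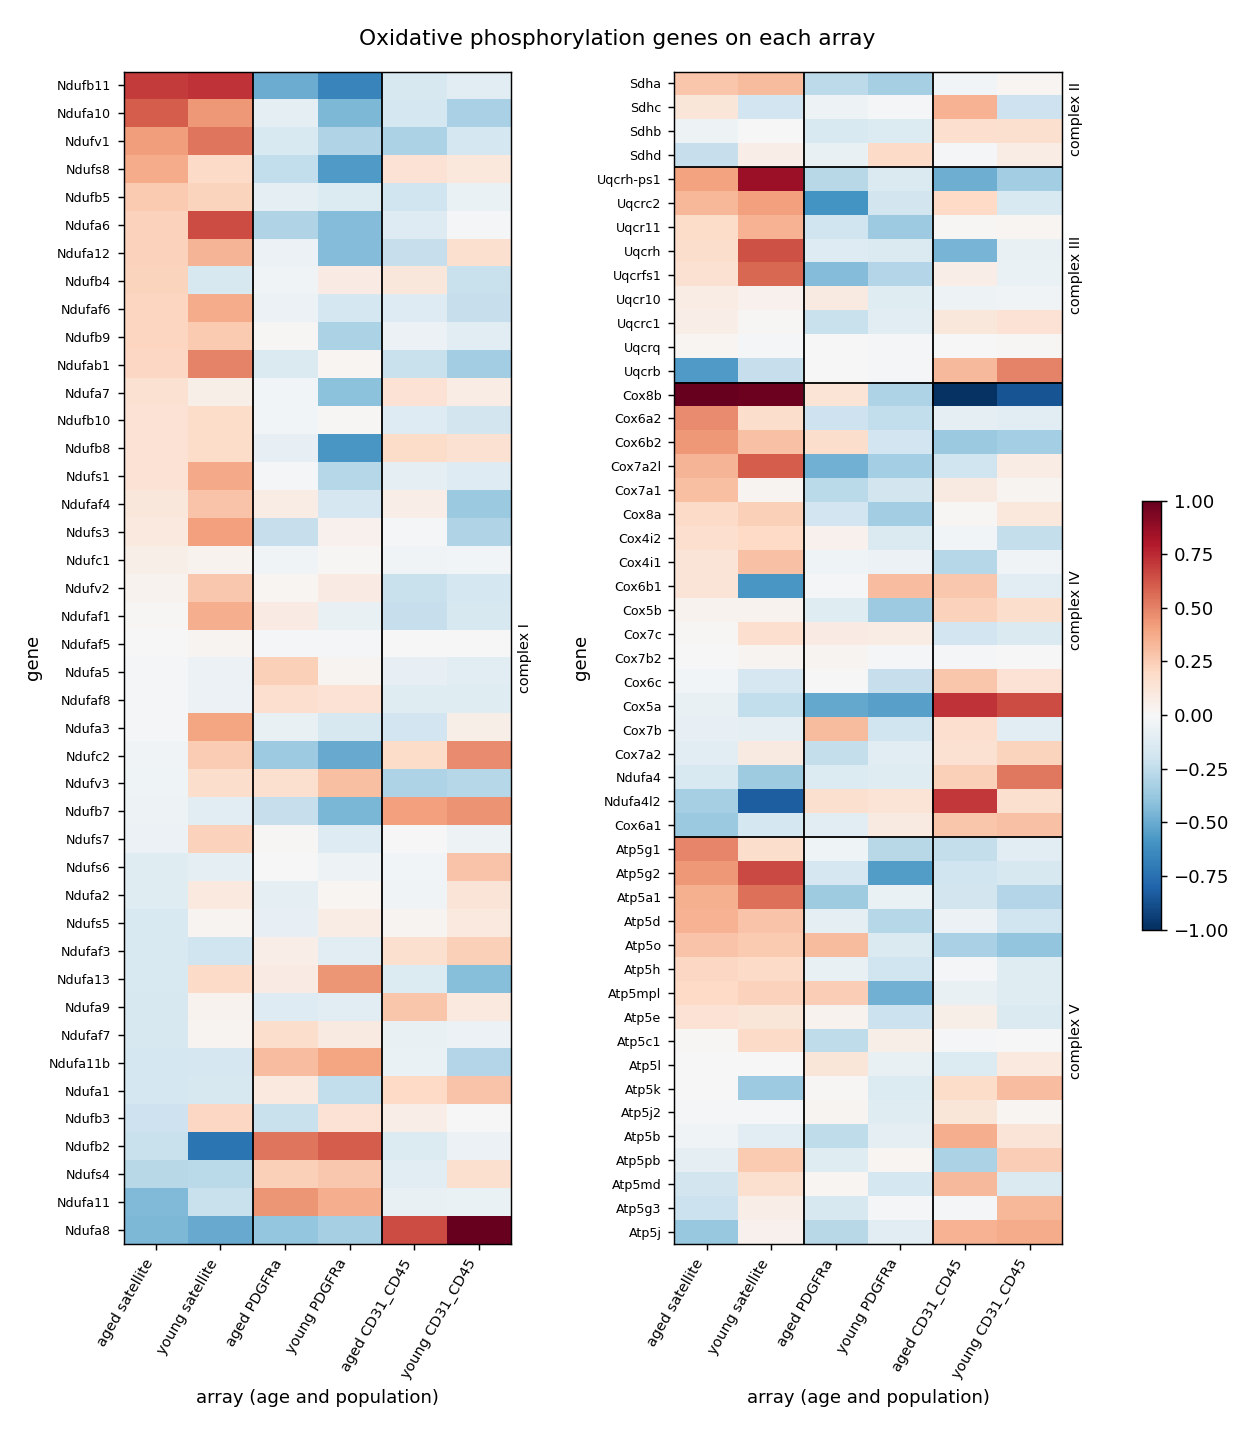
Normalised log2 level of the 91 tested genes (rows, by complex) on the 6 arrays (columns), as the difference from the gene's mean over the arrays; red is higher, blue lower, with colour ending at 1 log2 unit either way. Cox8b is highest on both satellite arrays, and Cox5a and Ndufa8 are highest on both CD31_CD45 arrays.

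Complex I oxidises NADH with a set of core subunits and is surrounded by accessory subunits. All 6 measured nuclear core subunits were higher in satellite than in PDGFRa cells (median 0.38, 2 rose) and than in CD31_CD45 cells (median 0.36, 2 rose), though under median scaling 4 of 6 were higher than in PDGFRa cells. Of all genes tested, 12.8% and 19.3% rose in these 2 comparisons. Ndufv1, the flavin-binding subunit that takes electrons from NADH, had log2 levels of 10.17 (aged) and 10.28 (young) in satellite cells, against 9.60 (aged) and 9.45 (young) in PDGFRa cells and 9.43 (aged) and 9.58 (young) in CD31_CD45 cells. Its satellite levels lay above all 4 others, and it rose by 0.70 (SE 0.09, adjusted p = 0.0217) against PDGFRa and by 0.72 (SE 0.09, adjusted p = 0.0141) against CD31_CD45 cells. Ndufs8, an iron-sulfur subunit, had 9.70 (aged) and 9.52 (young) in satellite cells, against 9.08 (aged) and 8.76 (young) in PDGFRa cells and 9.48 (aged) and 9.43 (young) in CD31_CD45 cells. It rose by 0.69 (SE 0.08, adjusted p = 0.018) in satellite against PDGFRa cells and stood at -0.53 (SE 0.08, adjusted p = 0.0236) for PDGFRa minus CD31_CD45, so PDGFRa cells were the low population. Ndufv2 rose by 0.35 (adjusted p = 0.0295) in satellite against CD31_CD45 cells, and was called in neither other comparison. Ndufs1, Ndufs3 and Ndufs7, also core subunits, differed by 0.41, 0.34 and 0.14 for satellite minus PDGFRa and were called in no comparison. Under median scaling the calls of Ndufv1 against PDGFRa cells (0.56, adjusted p = 0.0675), of Ndufs8 in both comparisons (0.57 and -0.46, adjusted p = 0.0502 and 0.0687) and of Ndufv2 (0.40, adjusted p = 0.0503) were lost.

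The accessory subunits went both ways: 4 rose and 4 fell among 29 in satellite against PDGFRa cells, with a median of 0.06. That is 27.6% called, against 24.5% of all genes tested. Ndufb11, a subunit of the membrane arm, had the largest increase of all 91 genes in this comparison, with levels of 9.35 (aged) and 9.37 (young) in satellite cells, against 8.15 (aged) and 7.99 (young) in PDGFRa cells and 8.49 (aged) and 8.54 (young) in CD31_CD45 cells. No 2 populations overlapped, and the differences were 1.29 (SE 0.07, adjusted p = 0.00704) for satellite minus PDGFRa and 0.84 (SE 0.07, adjusted p = 0.00622) for satellite minus CD31_CD45. Ndufa10, another accessory subunit, read 10.67 (aged) and 10.49 (young) in satellite cells, against 9.97 (aged) and 9.61 (young) in PDGFRa cells and 9.88 (aged) and 9.74 (young) in CD31_CD45 cells, with differences of 0.79 (adjusted p = 0.0123) and 0.77 (adjusted p = 0.00738). Both satellite arrays again lay above the other 4. Ndufb2, an accessory subunit of the membrane arm, was the opposite case, with 7.60 (aged) and 7.09 (young) in satellite cells, against 8.36 (aged) and 8.43 (young) in PDGFRa cells and 7.69 (aged) and 7.76 (young) in CD31_CD45 cells. Both PDGFRa arrays lay above the other 4, and the difference for satellite minus PDGFRa was -1.05 (SE 0.18, adjusted p = 0.0344).

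PDGFRa cells were also the high population for Ndufa11, an accessory subunit, and for its near-identical copy Ndufa11b, whose signals may be shared. Ndufa11 had 9.57 (aged) and 9.79 (young) in satellite cells, against 10.45 (aged) and 10.37 (young) in PDGFRa cells and 9.94 (aged) and 9.94 (young) in CD31_CD45 cells, with differences of -0.73 (SE 0.09, adjusted p = 0.0192) for satellite minus PDGFRa and 0.47 (SE 0.09, adjusted p = 0.0375) for PDGFRa minus CD31_CD45, and Ndufa11b had differences of -0.52 and 0.53 (adjusted p = 0.0368 and 0.0311). Ndufs4, an accessory subunit whose loss causes Leigh syndrome in humans, fell by 0.53 in satellite against PDGFRa cells (adjusted p = 0.0305). The assembly factor Ndufaf8 differed little, by -0.19 in that comparison and by 0.28 for PDGFRa minus CD31_CD45 (adjusted p = 0.0443 and 0.0181), and Ndufv3 rose by 0.53 (adjusted p = 0.0146) in PDGFRa against CD31_CD45 cells. With the deposited table the calls of Ndufs4 (adjusted p = 0.0506), of Ndufaf8 (adjusted p = 0.36 and 0.214) and, for PDGFRa minus CD31_CD45, of Ndufa11 (adjusted p = 0.0748) and Ndufv3 (adjusted p = 0.0535) were lost.

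CD31_CD45 cells were set apart by Ndufa8, an accessory subunit of complex I. Its levels were 10.54 (aged) and 10.48 (young) in satellite cells, against 10.60 (aged) and 10.65 (young) in PDGFRa cells and 11.64 (aged) and 12.005 (young) in CD31_CD45 cells, and the satellite and PDGFRa arrays lay close together, with a difference of -0.12. The differences from CD31_CD45 cells were -1.32 (SE 0.12, adjusted p = 0.00743) in satellite and -1.20 (SE 0.12, adjusted p = 0.0102) in PDGFRa cells. Ndufb7 and Ndufc2, also accessory subunits, were low in PDGFRa against CD31_CD45 cells, at -0.77 and -0.76 (adjusted p = 0.0101 and 0.0318). Under median scaling these were -0.60 and -0.56 and passed the test in neither case.

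Complex II has 4 subunits, the flavoprotein Sdha, the iron-sulfur protein Sdhb and the membrane anchors Sdhc and Sdhd. Sdha levels were 11 (aged) and 11.04 (young) in satellite cells, against 10.46 (aged) and 10.39 (young) in PDGFRa cells and 10.70 (aged) and 10.75 (young) in CD31_CD45 cells, and no 2 populations overlapped. It rose by 0.59 (SE 0.05, adjusted p = 0.0115) against PDGFRa and by 0.30 (SE 0.05, adjusted p = 0.0248) against CD31_CD45 cells. Sdhb went the other way against CD31_CD45 cells, with 9.78 (aged) and 9.84 (young) in satellite cells, against 10.00 (aged) and 9.99 (young) in CD31_CD45 cells and a difference of -0.19 (SE 0.04, adjusted p = 0.0403). The anchors Sdhc and Sdhd differed by -0.11 and -0.11 for satellite minus CD31_CD45 and were called in no comparison, and the median of the 4 for satellite minus PDGFRa (0.06) became -0.10 under median scaling. The calls against CD31_CD45 cells were lost under median scaling (Sdha 0.29, adjusted p = 0.117, and Sdhb -0.21, adjusted p = 0.0578) and with the deposited table (adjusted p = 0.16 and 0.285). That of Sdha against PDGFRa cells was lost under median scaling (0.41, adjusted p = 0.0711) and not with the deposited table (0.62, adjusted p = 0.0286).

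Complex III passes electrons from ubiquinol to cytochrome c. Of its 9 genes, 8 were higher in satellite than in PDGFRa cells and the median, 0.54, was the highest of the complexes (0.40 under median scaling). Of the 9, 2 passed the test (22.2%), where 24.5% of all genes tested did. Uqcr11, a small subunit, had 11.24 (aged) and 11.41 (young) in satellite cells, against 10.86 (aged) and 10.70 (young) in PDGFRa cells and rose by 0.54 (SE 0.09, adjusted p = 0.0344). Uqcrh, the hinge protein, and the probe named for its pseudogene Uqcrh-ps1 have near-identical sequence, so their signals may be shared. Uqcrh-ps1 rose by 0.84 and 1.04 in satellite against PDGFRa and CD31_CD45 cells (adjusted p = 0.0188 and 0.00811), while Uqcrh differed by 0.54 and 0.68 (adjusted p = 0.0775 and 0.0384). Uqcrfs1, the Rieske iron-sulfur protein, differed by 0.73 (SE 0.15, adjusted p = 0.0502) for satellite minus PDGFRa and was not called. Uqcrb, a subunit next to the quinone site, fell in satellite against CD31_CD45 cells, with 10.98 (aged) and 11.32 (young) in satellite cells, against 11.87 (aged) and 12.04 (young) in CD31_CD45 cells, a difference of -0.81 (SE 0.10, adjusted p = 0.0123). Uqcrc1, a core protein on the matrix side, stood at -0.30 (adjusted p = 0.0371) for PDGFRa minus CD31_CD45, a call lost under median scaling (-0.13, adjusted p = 0.184) and with the deposited table (-0.33, adjusted p = 0.158). Under median scaling Uqcr11 and Uqcrh also missed the test, at 0.40 (adjusted p = 0.136) and 0.89 (adjusted p = 0.0541).

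Complex IV reduces oxygen, and several of its subunits exist as a ubiquitous and a heart and skeletal muscle isoform. Of its 19 tested genes, 5 rose and 0 fell in satellite against PDGFRa cells (26.3% called, against 24.5% of all genes), with a median of 0.23. Against CD31_CD45 cells 6 rose and 5 fell (57.9%, against 34.9%), with a median of 0.03, and under median scaling 5 rose and 2 fell. For PDGFRa against CD31_CD45 cells 1 rose and 5 fell (31.6%, against 28.7%). The 3 muscle isoforms on the array, Cox6a2, Cox7a1 and Cox8b, were all higher in satellite than in PDGFRa cells, and Cox8b and Cox6a2 rose. Cox8b had log2 levels of 8.29 (aged) and 8.23 (young) in satellite cells, against 7.39 (aged) and 6.94 (young) in PDGFRa cells and 6.26 (aged) and 6.39 (young) in CD31_CD45 cells, 3 steps that did not overlap. It rose by 1.09 (SE 0.16, adjusted p = 0.0251) against PDGFRa and by 1.94 (SE 0.16, adjusted p = 0.00599) against CD31_CD45 cells, the largest difference of any of the 91 genes in the 3 comparisons. PDGFRa cells in turn exceeded CD31_CD45 cells by 0.84 (SE 0.16, adjusted p = 0.0362). Cox6a2 had dim signals of 6.57 (aged) and 6.28 (young) in satellite cells, against 5.89 (aged) and 5.85 (young) in PDGFRa cells and 6.01 (aged) and 5.99 (young) in CD31_CD45 cells, and rose by 0.55 (SE 0.09, adjusted p = 0.0299) and 0.42 (SE 0.09, adjusted p = 0.0397) in satellite cells, while Cox7a1 had 6.95 (aged) and 6.68 (young) in satellite cells, against 6.38 (aged) and 6.46 (young) in PDGFRa cells and 6.74 (aged) and 6.67 (young) in CD31_CD45 cells, differed by 0.39 and 0.11 and was not called. With the deposited table, to which 1 was added in place of the offset of 50, these differences were larger: Cox8b 1.496 and 3.09, and Cox6a2 2.20 and 1.31, for satellite minus PDGFRa and minus CD31_CD45, and 1.59 for Cox8b in PDGFRa minus CD31_CD45 cells.

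Myofibre genes were likewise highest in satellite cells. The 17 measured myofibre genes, among them Acta1, Ckm and Myh4, summed to 7137.8 (aged) and 3746.2 (young) deposited units in satellite cells, against 302.7 (aged) and 546.4 (young) in PDGFRa and 1027.3 (aged) and 1284.2 (young) in CD31_CD45 cells, with 15 to 17 above background on each array. Of these 17, 14 rose in satellite against PDGFRa cells and 7 against CD31_CD45 cells, with none falling. These are 82.4% and 41.2% of the 17, where 12.8% and 19.3% of all genes tested rose. Their summed level was lowest in PDGFRa cells, as were the levels of Cox6a2 and Cox7a1, whereas Cox8b was lowest in CD31_CD45 cells. The part of myofibre RNA in the levels of Cox8b and Cox6a2 was not tested.

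**Figure D3:**
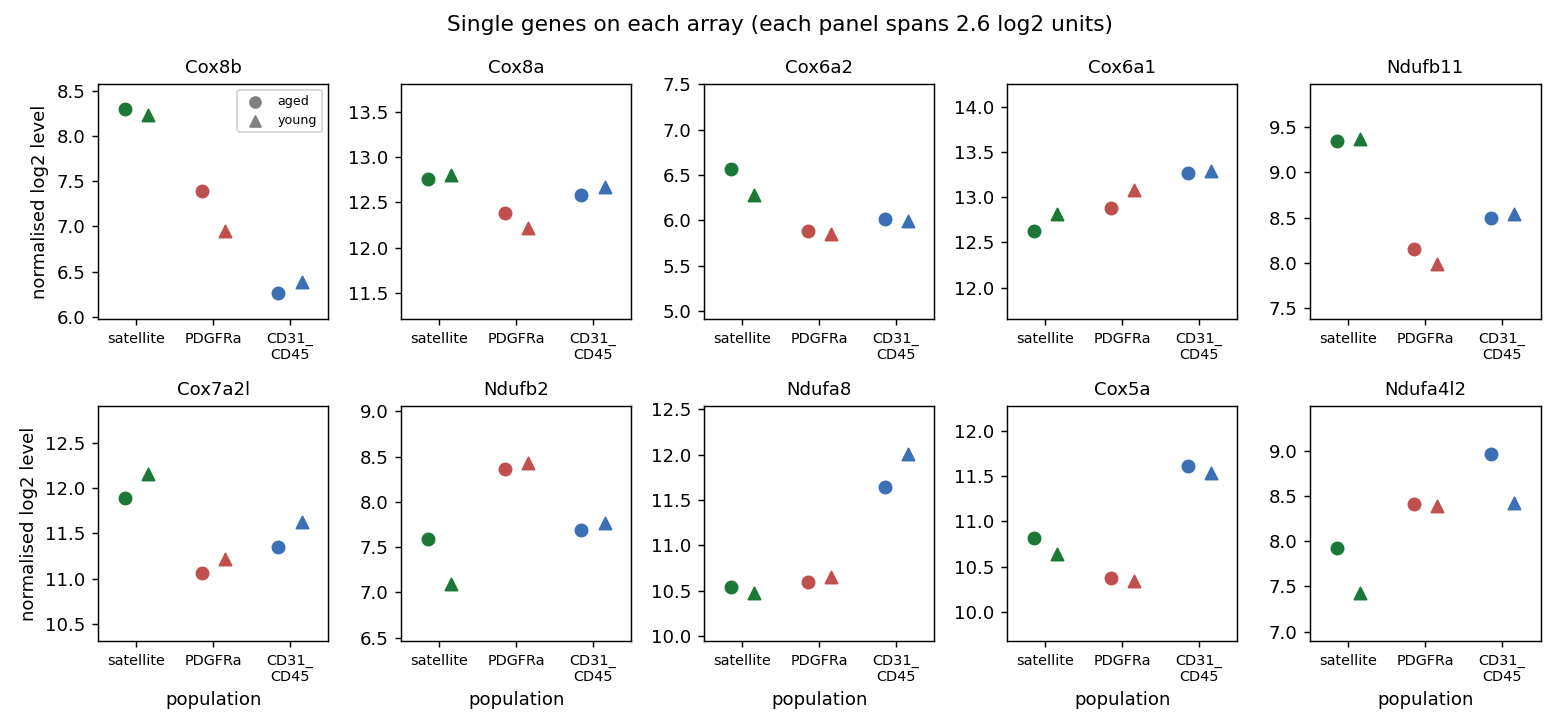
Normalised log2 level of 10 genes on each array, aged (circles) and young (triangles), by population; every panel spans the same number of log2 units. Cox8b and Ndufb11 are highest in satellite cells, Ndufb2 is highest in PDGFRa cells, and Ndufa8 and Cox5a are highest in CD31_CD45 cells.

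The ubiquitous partners of these isoforms went both ways. Cox8a had 12.76 (aged) and 12.81 (young) in satellite cells, against 12.38 (aged) and 12.22 (young) in PDGFRa cells and 12.58 (aged) and 12.67 (young) in CD31_CD45 cells and rose by 0.49 (SE 0.08, adjusted p = 0.0315) in satellite against PDGFRa cells. Cox6a1 ran the other way, with 12.62 (aged) and 12.82 (young) in satellite cells, against 12.88 (aged) and 13.08 (young) in PDGFRa cells and 13.27 (aged) and 13.28 (young) in CD31_CD45 cells, with a difference of -0.56 (SE 0.07, adjusted p = 0.0118) for satellite minus CD31_CD45. That fall depends on the scaling, since under median scaling Cox6a1 differed by -0.0020 (adjusted p = 0.992). Cox7a2 differed by 0.16 and -0.20 in satellite cells and was not called there. Cox4i1, the ubiquitous isoform of subunit 4, rose by 0.37 (adjusted p = 0.042) against CD31_CD45 cells, and its hypoxia-linked partner Cox4i2 differed by 0.32 without a call. Under median scaling Cox8a missed the test (0.72, adjusted p = 0.0629), and with the deposited table both Cox8a (0.50, adjusted p = 0.0547) and Cox4i1 (0.36, adjusted p = 0.11) did.

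Cox7a2l, which joins complexes III and IV in supercomplexes and is known in C57BL/6 mice as a short form, had 11.89 (aged) and 12.15 (young) in satellite cells, against 11.07 (aged) and 11.21 (young) in PDGFRa cells and 11.35 (aged) and 11.63 (young) in CD31_CD45 cells. Both satellite arrays lay above the other 4, and it rose by 0.88 (SE 0.05, adjusted p = 0.00737) and 0.53 (SE 0.05, adjusted p = 0.00817) against PDGFRa and CD31_CD45 cells. Cox5a, a nuclear-encoded structural subunit, was high in CD31_CD45 cells, with 10.82 (aged) and 10.64 (young) in satellite cells, against 10.38 (aged) and 10.35 (young) in PDGFRa cells and 11.61 (aged) and 11.54 (young) in CD31_CD45 cells. No 2 populations overlapped, and Cox5a stood at -0.85 (SE 0.05, adjusted p = 0.00377) for satellite minus CD31_CD45 and -1.22 (SE 0.05, adjusted p = 0.00241) for PDGFRa minus CD31_CD45. Ndufa4, a complex IV subunit first assigned to complex I, and its hypoxia-inducible paralog Ndufa4l2 were lower in satellite than in CD31_CD45 cells, with differences of -0.64 (adjusted p = 0.0395) and -1.01 (adjusted p = 0.02). Ndufa4l2 had 7.92 (aged) and 7.43 (young) in satellite cells, against 8.96 (aged) and 8.42 (young) in CD31_CD45 cells, and the groups did not overlap. Under median scaling Ndufa4 missed the test (adjusted p = 0.0531). The testis isoform Cox6b2 rose by 0.72 (adjusted p = 0.0205) in satellite against CD31_CD45 cells. On each of its 3 probes both satellite arrays lay above both CD31_CD45 arrays, though the dimmest probe read only 4.2 to 13 deposited units.

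Promoter windows of RefSeq (GRCm38.p6, 250 bases before to 50 after the start) were on hand for 74 of the 92 genes. Each motif was searched on both strands. The ETS motif CCGGAAG, bound by GABP among others, was in 24.3% of the 74, against 9.93% of the 27025 genes with windows, and the NRF1 motif (GCGC, any base, then TGCGC) was in 25.7% against 5.19%. The YY1 motif AAGATGG was in 16.2% against 7.28%, the ERR motif AAGGTCA in 10.8% against 5.38%, and the muscle E-box CAGCTG in 8.11% against 18.3%. The E-box is known as a site of myogenic factors and the others as sites of regulators of respiratory genes, and a match here describes letters, not occupancy. The windows below are those of the muscle isoforms Cox8b and Cox7a1, their ubiquitous partners Cox8a and Cox7a2, the ubiquitous Cox6a1, Ndufa8 (high in CD31_CD45 cells) and Ndufb11 (high in satellite cells), from chr7:140900397-140900696 (minus strand), chr7:30183921-30184220 (plus strand), chr19:7217567-7217866 (minus strand), chr9:79759804-79760103 (minus strand), chr5:115348909-115349208 (minus strand), chr2:36049289-36049588 (minus strand) and chrX:20617570-20617869 (minus strand). They are shown to set the promoters of the muscle isoforms Cox8b and Cox7a1 beside those of broadly expressed subunits, and capitals mark matches to the motifs above.
Cox8b: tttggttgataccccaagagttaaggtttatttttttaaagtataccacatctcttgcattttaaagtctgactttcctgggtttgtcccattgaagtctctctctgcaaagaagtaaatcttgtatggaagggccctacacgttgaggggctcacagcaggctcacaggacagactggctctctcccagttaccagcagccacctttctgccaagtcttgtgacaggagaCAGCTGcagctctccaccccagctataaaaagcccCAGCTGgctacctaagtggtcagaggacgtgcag
Cox7a1: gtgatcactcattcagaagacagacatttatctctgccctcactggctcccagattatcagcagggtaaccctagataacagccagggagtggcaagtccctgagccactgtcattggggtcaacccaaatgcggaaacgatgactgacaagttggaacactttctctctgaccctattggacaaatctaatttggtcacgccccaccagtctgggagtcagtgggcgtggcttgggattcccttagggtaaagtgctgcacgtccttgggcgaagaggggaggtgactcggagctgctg
Cox8a: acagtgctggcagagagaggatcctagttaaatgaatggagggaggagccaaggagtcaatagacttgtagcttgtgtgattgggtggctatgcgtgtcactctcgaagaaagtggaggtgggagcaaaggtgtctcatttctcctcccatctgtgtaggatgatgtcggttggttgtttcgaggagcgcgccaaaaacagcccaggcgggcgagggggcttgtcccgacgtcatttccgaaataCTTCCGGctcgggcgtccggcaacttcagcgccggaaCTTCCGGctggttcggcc
Cox7a2: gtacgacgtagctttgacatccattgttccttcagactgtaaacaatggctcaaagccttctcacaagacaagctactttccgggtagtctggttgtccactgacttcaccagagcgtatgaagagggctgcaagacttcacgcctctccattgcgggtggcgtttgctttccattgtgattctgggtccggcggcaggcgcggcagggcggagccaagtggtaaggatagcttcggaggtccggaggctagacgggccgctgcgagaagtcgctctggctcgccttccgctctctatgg
Cox6a1: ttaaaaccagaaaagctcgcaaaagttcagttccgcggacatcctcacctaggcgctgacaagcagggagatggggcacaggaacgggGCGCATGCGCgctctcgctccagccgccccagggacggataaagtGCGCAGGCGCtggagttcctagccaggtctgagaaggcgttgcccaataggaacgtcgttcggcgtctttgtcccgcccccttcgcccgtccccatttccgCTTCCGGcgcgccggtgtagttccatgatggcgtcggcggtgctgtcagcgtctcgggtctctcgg
Ndufa8: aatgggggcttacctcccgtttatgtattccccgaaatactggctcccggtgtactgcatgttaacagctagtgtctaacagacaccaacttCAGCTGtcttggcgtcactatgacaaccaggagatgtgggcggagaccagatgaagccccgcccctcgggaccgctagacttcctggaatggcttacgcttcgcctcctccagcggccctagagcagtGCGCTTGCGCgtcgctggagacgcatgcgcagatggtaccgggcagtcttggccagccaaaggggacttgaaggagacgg
Ndufb11: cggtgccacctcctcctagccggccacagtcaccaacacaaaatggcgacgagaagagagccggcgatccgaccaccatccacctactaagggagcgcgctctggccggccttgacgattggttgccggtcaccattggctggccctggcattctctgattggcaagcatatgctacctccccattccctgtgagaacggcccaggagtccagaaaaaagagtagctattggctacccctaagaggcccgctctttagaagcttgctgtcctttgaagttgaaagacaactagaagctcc
The Cox8b window holds the E-box at positions -19 and 17 from the start and none of the other motifs, and the Cox8a window holds the ETS motif at -5 and 33. In Cox6a1 the NRF1 motif occurs at -162 and -117 and the ETS motif at -16. Ndufa8 has the NRF1 motif at -30 and the E-box at -158, and the windows of Cox7a1, Cox7a2 and Ndufb11 hold none of the motifs. Those of Cox5a and Cox7a2l, not printed, hold none either.

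Complex V was higher in satellite than in PDGFRa cells for 15 of 17 genes, with a median of 0.18, and 4 rose and none fell. The share called, 23.5% of the 17, was close to the 24.5% of all genes tested. Atp5a1, the alpha subunit of the F1 head, had 11.42 (aged) and 11.61 (young) in satellite cells, against 10.71 (aged) and 10.997 (young) in PDGFRa cells and 10.88 (aged) and 10.77 (young) in CD31_CD45 cells, and rose by 0.66 (SE 0.12, adjusted p = 0.0365) and 0.69 (SE 0.12, adjusted p = 0.0245) against PDGFRa and CD31_CD45 cells. Its catalytic partner Atp5b stood at 0.10 and -0.32, with no call, and at 0.35 and 0.22 under median scaling. Its direction against CD31_CD45 cells thus turned with the scaling. In the central stalk, Atp5d rose by 0.50 and 0.45 (adjusted p = 0.0141 and 0.0105), while Atp5c1 differed by 0.20 and 0.11 and Atp5e by 0.23 and 0.18, both without a call. The membrane ring is made from 3 genes that encode one mature protein, and near-identical stretches may share signal. Of them, Atp5g2 had 12.31 (aged) and 12.54 (young) in satellite cells, against 11.71 (aged) and 11.32 (young) in PDGFRa cells and 11.68 (aged) and 11.72 (young) in CD31_CD45 cells and rose by 0.91 (SE 0.17, adjusted p = 0.0415) against PDGFRa cells. In that comparison Atp5g1 differed by 0.50 and Atp5g3 by 0.01 (0.23 under median scaling), without a call in the main setting. Atp5j, a stalk subunit, fell by 0.52 (SE 0.11, adjusted p = 0.0422) in satellite and by 0.55 (SE 0.11, adjusted p = 0.0441) in PDGFRa against CD31_CD45 cells. Under median scaling Atp5g2 (1.02, adjusted p = 0.0582) and Atp5j (-0.50 and -0.37, adjusted p = 0.0702 and 0.146) missed the test, and with the deposited table Atp5j (adjusted p = 0.0528 and 0.0508) and Atp5d against CD31_CD45 cells (0.43, adjusted p = 0.0657) did.

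With age, few oxidative phosphorylation genes differed by much, and none passed the test. The age term of the model, 3 aged against 3 young arrays, called 0 of 91 genes (limma) and 0% of all genes tested, with 10 of the 91 at an unadjusted p under 0.05. Within a population the comparison is of a single aged with a single young array and has no test. At least 1.5-fold differences were seen for 1 of 91 genes in satellite cells (4.39% of all genes), 1 of 90 in PDGFRa cells (2.14% of all genes) and 0 of 91 in CD31_CD45 cells (2.44% of all genes). The medians were -0.04 in satellite, 0.05 in PDGFRa and -0.01 in CD31_CD45 cells, and under median scaling they were -0.14, 0.10 and -0.11.

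The gene past 1.5-fold in satellite cells was Cox6b1, a subunit on the intermembrane side of complex IV, with 11.29 (aged) and 10.58 (young) in satellite cells (difference 0.71). In the other populations it differed by -0.32 (PDGFRa) and 0.39 (CD31_CD45), so the pairs did not share a direction. Ndufb2 and Ndufa4l2 followed in satellite cells, at 0.50 and 0.49. The lowest were Uqcrh at -0.46, Uqcrh-ps1, which may share its signal, at -0.45, and Uqcrfs1 at -0.42, all counted with complex III. Complex III had a median of -0.16 in aged against young satellite cells, against -0.01 over all genes, and 5 of 6 complex I core subunits were lower. Of all genes in this pair, 44.0% were higher in aged cells. In the same pair all 17 myofibre genes were higher in aged cells (median 0.96). So were 10 of 10 mesenchymal progenitor markers (median 1.01), 11 of 12 pericyte and smooth muscle markers (median 0.78) and 12 of 12 hematopoietic markers (median 0.12). Erythroid genes were higher as well, 6 of 6, with a median of 0.36. The 2 satellite arrays are also of different scanner sets, and the part of any of these in the values was not tested.

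In PDGFRa cells the gene past 1.5-fold was Atp5mpl, a small membrane subunit of complex V, with 11.22 (aged) and 10.50 (young) in PDGFRa cells (difference 0.72). Cox7b at 0.51 and Ndufb8 at 0.50 were next, and Uqcrc2 at -0.41, Ndufb3 at -0.37 and Ndufa13 at -0.36 were lowest. In CD31_CD45 cells, Sdhc, a membrane anchor of complex II, was highest, with 11.07 (aged) and 10.51 (young) in CD31_CD45 cells (difference 0.55), followed by Ndufa4l2 at 0.54 and Atp5md at 0.46. Atp5pb, a stator subunit of complex V, was lowest at -0.56, with Uqcrh at -0.39 and Ndufa12 at -0.39 above it. Ndufa4l2 was higher with age in both satellite and CD31_CD45 cells, and by 0.02 in PDGFRa cells. Marker genes shifted in both pairs. In aged PDGFRa cells 1 of 10 mesenchymal progenitor markers (median -0.33), 1 of 6 erythroid genes (median -0.94) and 8 of 11 hematopoietic markers (median 0.16) were higher. Glial markers were higher there for 3 of 4 genes (median 0.60). In aged CD31_CD45 cells 1 of 11 endothelial markers (median -0.28), 0 of 6 erythroid genes (median -0.35) and 10 of 12 hematopoietic markers (median 0.40) were higher. The part of these shifts in the values was not tested. The arrays of each of these pairs share a scanner set, and with 1 array each, the error of a pair is not known.

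**Figure D4:**
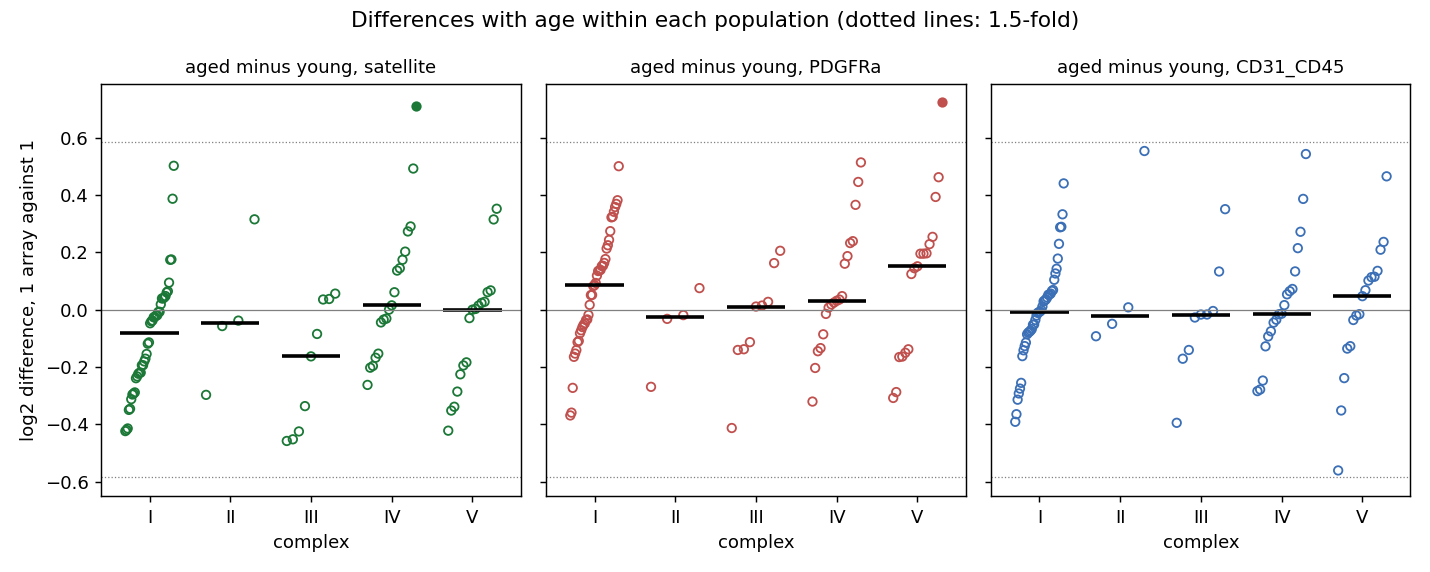
Aged minus young log2 difference (vertical axis) of each gene by complex (horizontal axis) within the 3 populations, 1 array against 1. Dotted lines mark 1.5-fold, filled points lie beyond it (Cox6b1 in satellite and Atp5mpl in PDGFRa cells), and bars are medians.

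Genes that feed or build the chain were set beside it. Of 16 tricarboxylic acid cycle genes, 7 rose in satellite against PDGFRa cells and 9 against CD31_CD45 cells, with none falling. Among them Cs, citrate synthase, rose by 0.64 (SE 0.05, adjusted p = 0.00904) and 0.45 (SE 0.05, adjusted p = 0.00861). Of 19 regulators of mitochondrial biogenesis, 8 rose and 0 fell against PDGFRa cells, and 9 rose and 1 fell against CD31_CD45 cells. The 1 that fell was Gabpb1, a subunit of GABP, at -0.89 (adjusted p = 0.0275). Among those that rose, named after their values were seen, were Nr1d1, a circadian repressor linked to mitochondrial content, at 1.52 and 2.45 (adjusted p = 0.00391 and 0.000855), the coactivator Pprc1 at 0.73 and 1.18 (adjusted p = 0.0222 and 0.00612) and the coactivator Ppargc1b at 0.96 and 0.61 (adjusted p = 0.00822 and 0.00893). Assembly factors went both ways. Of 16 complex IV assembly factors, 1 rose and 0 fell against PDGFRa cells, and 2 rose and 2 fell against CD31_CD45 cells. Of 23 other assembly factors and carriers, 3 rose and 4 fell against PDGFRa cells, and 9 rose and 3 fell against CD31_CD45 cells. Of 78 mitochondrial ribosomal proteins, 11 rose and 9 fell against PDGFRa cells and 25 rose and 5 fell against CD31_CD45 cells. Cytosolic ribosomal proteins were more one-sided, with 35 of 61 rising and 1 falling against PDGFRa cells (median 0.38) and 43 rising and 0 falling against CD31_CD45 cells (median 0.53). Of all genes tested, 24.5% were called against PDGFRa and 34.9% against CD31_CD45 cells. In that order, the shares were 43.75% and 56.25% of the cycle genes and 42.1% and 52.6% of the regulators. They were 6.25% and 25% of complex IV assembly factors and 30.4% and 52.2% of other assembly factors and carriers. Mitochondrial ribosomal proteins, at 25.6% and 38.5%, were close to all genes, and cytosolic ones stood at 59.0% and 70.5%. The alternative settings were not run for these lists.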

How the data were processed

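Per the file headers, each deposited scanner file gives the median intensity of 27456 spots at 635 nm, merged from 3 gains. In the authors' deposited table, linear intensity has a median of 25 on each array, and no value is given for spots not above the trimmed mean (5%) of 2736 blank spots plus 2 trimmed SD. Here, spot medians were corrected with limma 3.58.1 (normexp, blank spots as background, offset 50) in R 4.3.3, log2 transformed and quantile normalised. The offset understates differences of dim genes. Symbols are those of the array annotation, brought up to date through Entrez identifiers. Genes above background on at least 2 arrays (18372) were fitted with population and age as terms (2 residual degrees of freedom, two-sided tests, Benjamini-Hochberg over all genes). An age difference in 1 pair alone enters the error. P-values measure only the spread between these arrays. In a simulation of satellite against PDGFRa cells over 18372 genes, 40% of 50 genes changed by 0.5 on the log2 scale and 94% of 50 changed by 1 were recovered. Only 50 genes at each of 0.5, 1, 2 and 3 were changed, a far smaller share than was called in the data. The noise was independent, with no age or scanner effect, so these rates do not give the recovery in the data. Genes named are core subunits, isoforms, the 5 called genes with the largest difference each way in a comparison, and the 3 highest and 3 lowest in each age pair. Members, lists and tests were chosen with earlier results of these data known. Alternatives covered the background, offset, scaling (linear signal set to 1 median per array), deposited table (log2 of value plus 1, quantile normalised), filter, probe choice, covariates, scanner set and each array left out.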

Additional observations from a re-analysis of the deposited data

How the results depend on the processing

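The counts called were 23 (satellite against PDGFRa), 33 (satellite against CD31_CD45) and 19 (PDGFRa against CD31_CD45), and they stayed within 1.5 times of these without background correction, with an offset of 10, without a filter, with genes above background on all 6 arrays, with the mean of all probes, without an age term, with an intensity trend and, chosen after seeing the data, with subunits only. With each spot's local background they were 0, 0 and 0 (limma, 9 members in each at an unadjusted p under 0.05), with 2-fold required as well 3, 4 and 2, and with scanner set as a block 9, 9 and 2. Only the satellite arrays, whose ages lie in different sets, inform that block. For satellite against PDGFRa cells the block therefore gives the same fit as leaving out the aged satellite array. Against CD31_CD45 cells it gives the same fit as leaving out the young satellite array. Median scaling gave 16, 22 and 8, of which 13, 20 and 7 were calls of the original setting, and the deposited table gave 21, 22 and 9. Leaving out 1 array gave 0 to 12, 9 to 21 and 2 to 11. These fits leave 1 population with a lone array, which is assumed to vary like the others, and have fewer samples. For the age term each setting gave 0. The median for PDGFRa against CD31_CD45 was 0.065 under median scaling and -0.160 with the scanner block, in place of -0.056. Counts at 1.5-fold with age (1, 1 and 0 in satellite, PDGFRa and CD31_CD45 cells) were 44, 42 and 36 with the local background, 4, 2 and 1 with an offset of 10, 2, 1 and 1 under median scaling, 6, 1 and 2 with the deposited table, and 0, 0 and 0 at 2-fold. These are counts of 91, 90 and 91 members. Over all genes the shares were 16.2%, 14.4% and 13.1% with the local background and 8.51%, 4.55% and 4.52% with an offset of 10. They were 4.69%, 2.25% and 2.51% under median scaling, 16.1%, 13.3% and 8.76% with the deposited table, and 1.22%, 0.42% and 0.58% at 2-fold. In the deposited table after normalisation the median of all genes in the PDGFRa age pair was -0.142, and that of the members 0.007. With the local background these calls reversed: for satellite minus PDGFRa, Cox5a (-0.641), Ndufaf8 (0.435) and Ndufb5 (-0.575); for satellite minus CD31_CD45, Atp5a1 (-0.297), Cox6c (0.0203), Ndufaf3 (0.515), Ndufb5 (-0.265) and Sdhb (0.280); and for PDGFRa minus CD31_CD45, Cox7a2 (0.426), Ndufaf8 (-0.804), Ndufb11 (0.0475) and Ndufc2 (0.317). No call reversed under any other setting, and apart from the smaller samples and stricter rules the cause was not tested. The age term compares aged with young arrays within each population, and no replicate block was added because the labels carry no replicate numbers. Signal over background limits the dim genes, such as Cox6a2.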
